A study of Mus musculus with 4 samples.

Results

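A set of 10 genes through which astrocytes keep the fluid around neurons in order was followed in the hippocampus after global cerebral ischemia (GCI). They are the glutamate transporters Slc1a2 and Slc1a3, the glutamine synthetase gene Glul, the water channel gene Aqp4, the potassium channel gene Kcnj10, the connexin genes Gja1 and Gjb6, the folate enzyme gene Aldh1l1, the calcium-binding protein gene S100b, and Fam107a, which encodes an actin-associated protein. The 10 genes were chosen by name for their known place in astrocytes, out of 22609 gene symbols in the count tables. All 10 were among the 14527 genes tested. They and the other gene lists used below were chosen with earlier results of these data known, so counts over them are not independent evidence. One of the 10 genes, Fam107a, is also among the genes that the study itself picked out of this RNA-Seq profile for follow-up. Its direction here is therefore not independent evidence.

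RNA-Seq was performed on 4 hippocampus libraries, with 2 libraries from FLOX+GCI mice and 2 from mice of the FBN-ARO-KO+GCI group. FBN-ARO-KO mice carry a Cyp19a1 (aromatase) gene that is deleted by Cre recombinase under the CaMKIIα promoter, so that the enzyme that makes estradiol is lost in forebrain excitatory neurons and not, by design, in astrocytes. FLOX mice are their floxed controls. All mice of both groups were females aged 3 to 5 months per the study's methods, were ovariectomized 1 week before surgery, had both common carotid arteries closed for 20 min, and were reperfused for 24 h. No sham-operated library was analyzed here, so the comparison is between genotypes after ischemia and gives no change caused by ischemia itself. Whether the 2 libraries of a group came from separate mice is not given in the sources used here, and the p-values measure only the spread between these libraries, which may be technical.

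Astrocytes clear glutamate from synapses with the transporters GLT-1 (Slc1a2) and GLAST (Slc1a3) and convert it to glutamine with glutamine synthetase, and the glutamine is returned to neurons. They take up the potassium that firing neurons release through Kir4.1 (Kcnj10), exchange water at their endfeet on blood vessels through aquaporin-4, and pass ions and small molecules from cell to cell through gap junctions of connexin 43 (Gja1) and connexin 30 (Gjb6). Aldh1l1 and S100b are widely used as astrocyte markers. Some of these transcripts are also found in other brain cells, for example Glul and S100b in oligodendrocytes. In a bulk tissue library, fewer cells of a type and less RNA per cell cannot be told apart.

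Between 24333396 and 33076795 counts fell on genes in a library, and the FBN-ARO-KO+GCI libraries were the deeper ones. The 10 genes together took between 0.640% and 0.768% of these counts. Each had between 1492 and 111313 counts in every library, so that counting error alone was at most 2.59%, and the spread between libraries set the precision. The targeted gene, Cyp19a1, had between 1 and 4 counts in each library, which does not allow a check of the deletion. The 2 libraries of a genotype were not one library deposited under 2 names, because a chi-square of their counts, divided by its degrees of freedom, was 10.8 in the FLOX+GCI pair and 12.8 in the other pair. FLOX+GCI replicate 2 stood apart from the other 3 libraries, with a Gfap level of 900 CPM (counts scaled to library size with TMM factors) against 395.7 to 560, and a level of the glutamate transporter gene Slc17a6 of 64.24 CPM against 22.26 to 25.26. In that library 7 of the 10 astrocyte genes had their lowest level and 2 their highest. The lowest and highest log2 fold change with 1 library left out in turn are therefore given for each gene.

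To place the genes in their genomic context, the promoters of the 4 genes that gave the smallest p-values (Fam107a, Glul, Slc1a2 and Aldh1l1) are shown. Each runs from 250 bases before to 50 bases after a transcript start in RefSeq (build GRCm38.p6), 5′ to 3′ on the strand of the gene. Capitals mark matches, on either strand, to the letters TATAAA of the TATA box, the letters CCAAT of the box of that name, the letters GGGCGG of the GC box, the letters AGAACA of the glucocorticoid response element half-site, or the letters AGGTCA of the estrogen response element half-site. Of Fam107a, 2 separate starts are shown, and a further start lies 2 bases from the second. Which start of a gene is used in the hippocampus was not tested, and a start shown need not be the main one.
Fam107a, first start, chr14:8317558-8317857, minus strand: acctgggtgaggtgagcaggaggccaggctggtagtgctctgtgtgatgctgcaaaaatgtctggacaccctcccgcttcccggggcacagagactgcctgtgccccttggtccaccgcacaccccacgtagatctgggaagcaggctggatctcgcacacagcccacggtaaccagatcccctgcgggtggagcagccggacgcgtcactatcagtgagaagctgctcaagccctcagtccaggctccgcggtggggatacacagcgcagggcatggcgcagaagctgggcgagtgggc
Fam107a, second start, chr14:8309730-8310029, minus strand: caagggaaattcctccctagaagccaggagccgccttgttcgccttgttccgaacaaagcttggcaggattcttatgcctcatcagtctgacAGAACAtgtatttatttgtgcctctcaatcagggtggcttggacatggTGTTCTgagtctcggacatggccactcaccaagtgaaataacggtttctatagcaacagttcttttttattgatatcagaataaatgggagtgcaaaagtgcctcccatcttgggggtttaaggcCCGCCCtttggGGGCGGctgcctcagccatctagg
Glul, chr1:153899679-153899978, plus strand: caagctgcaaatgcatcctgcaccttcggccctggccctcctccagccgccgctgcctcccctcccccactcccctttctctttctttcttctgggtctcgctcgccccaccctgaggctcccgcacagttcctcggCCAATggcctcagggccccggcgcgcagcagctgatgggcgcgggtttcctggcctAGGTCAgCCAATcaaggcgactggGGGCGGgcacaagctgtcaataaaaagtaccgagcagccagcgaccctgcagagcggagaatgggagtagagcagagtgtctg
Slc1a2, chr2:102706188-102706487, plus strand: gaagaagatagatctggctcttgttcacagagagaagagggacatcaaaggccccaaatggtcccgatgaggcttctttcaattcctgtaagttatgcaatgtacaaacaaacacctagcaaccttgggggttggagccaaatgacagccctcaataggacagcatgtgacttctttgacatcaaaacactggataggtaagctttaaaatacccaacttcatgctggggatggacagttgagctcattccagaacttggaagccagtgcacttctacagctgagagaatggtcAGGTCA
Aldh1l1, chr6:90550543-90550842, plus strand: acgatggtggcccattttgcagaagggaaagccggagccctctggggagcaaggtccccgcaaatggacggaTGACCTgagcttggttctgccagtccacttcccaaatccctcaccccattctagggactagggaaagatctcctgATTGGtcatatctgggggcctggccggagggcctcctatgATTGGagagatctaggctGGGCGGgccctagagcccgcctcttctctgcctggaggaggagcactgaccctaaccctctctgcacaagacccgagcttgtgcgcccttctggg

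The first Fam107a promoter held none of the motifs, and the second held 2 glucocorticoid response element half-sites and 2 GC boxes. Glul held 2 CCAAT boxes, 1 GC box and 1 estrogen response element half-site. Slc1a2 held 1 estrogen response element half-site, which lies after the transcript start, and Aldh1l1 held 2 CCAAT boxes, 1 GC box and 1 estrogen response element half-site. Such short runs of letters are common. Of 32544 mouse promoters of this length, 18.9% held the glucocorticoid half-site, 16.2% the estrogen half-site, 37.4% a CCAAT box, 35.9% a GC box and 13.6% a TATA box. A match describes the letters only and is not evidence that a factor binds there.

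The levels of the 10 genes were first set against each other as CPM per kb of the longest protein-coding transcript, which allows genes to be compared. They ranged from 11.9 to 588 CPM per kb over the 4 libraries. Glul was the highest, with a mean level of 482.1 CPM per kb in FLOX+GCI, against 577.5 in FBN-ARO-KO+GCI, followed by Slc1a2 (264.6 and 305.2). Slc1a3 (175.9 and 192.5) and Fam107a (171.7 and 250.5) came next, with overlapping levels. S100b (81.92 and 82.97) and Gja1 (63.41 and 69.39) lay in the middle of the order. Kcnj10 (43.72 and 43.69) overlapped with Gjb6 (34.24 and 38.93) over the libraries, and Gjb6 with Aqp4 (29.25 and 30.58). Aldh1l1 was the lowest at 14.93 and 12.11 CPM per kb.

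**Figure D1:**
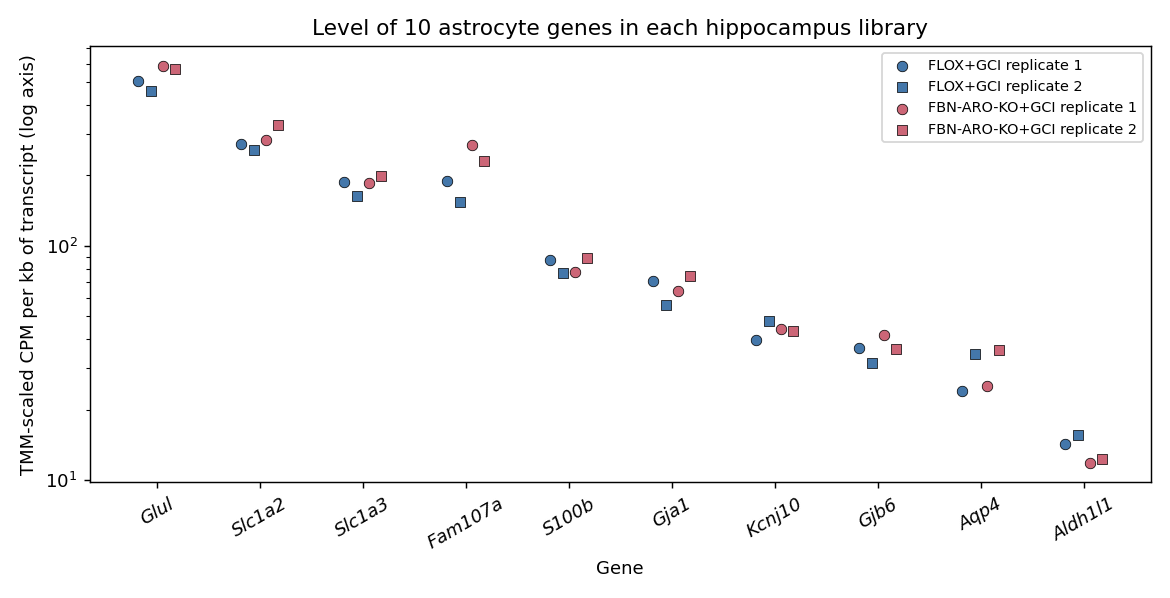
The level of each gene, in CPM per kb of transcript on a log axis, is plotted for each of the 4 libraries, with genes ordered by their FLOX+GCI mean. Both FBN-ARO-KO+GCI points lie above both FLOX+GCI points for Fam107a, Glul and Slc1a2, and below them for Aldh1l1. For the other 6 genes the points of the genotypes overlap.

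The question of this comparison was whether the genes of astrocyte homeostasis differ between FBN-ARO-KO and FLOX hippocampus 24 h after GCI. No gene of the 10 passed the threshold of edgeR's quasi-likelihood test (adjusted p under 0.05 over all genes), against 0.0138% of all genes tested, or 2 of 14527. By other tests on the same libraries, DESeq2 called 2 of the 10 genes (Fam107a and Glul) and edgeR's likelihood ratio test 1 (Fam107a). DESeq2 called 4.92% of the 5796 genes to which it gave an adjusted p, and the likelihood ratio test 2.02% of all genes tested. At an unadjusted p under 0.05, which 16.5% of all genes tested reached, 3 genes were higher in FBN-ARO-KO+GCI (Fam107a, Glul and Slc1a2), where 8.72% of all genes tested were higher, and 1 was lower (Aldh1l1), where 7.82% were lower. These same 4 genes were the ones whose libraries did not overlap between genotypes, a state found for 51.8% of all genes tested (25.9% higher and 25.8% lower). Of the 10 log2 fold changes, 8 lay above 0, with a median of 0.13. Of all 14527 genes tested, 7069 lay above 0, with a median of -0.01.

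The count of 4 genes rested in part on single FLOX+GCI libraries. It was 7 without FLOX+GCI replicate 1 and 2 without FLOX+GCI replicate 2, and the median log2 fold change was 0.25 without FLOX+GCI replicate 1, 0.21 without FBN-ARO-KO+GCI replicate 1 and 0.05 without FBN-ARO-KO+GCI replicate 2. Between genotypes, the log2 fold changes of 14004 genes followed the GC content of their transcripts, with a Spearman correlation of -0.548. This value is taken across genes, and genes are no independent replicates. The same trend was 0.0997 from FLOX+GCI replicate 1 to 2 and -0.478 from replicate 1 to 2 of FBN-ARO-KO+GCI. With the trend over GC content and length removed from each library, the median was 0.06 for the 10 genes and 0.03 for all genes tested. The transcripts of the 10 genes have a GC content of 40.7% to 54.4%.

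**Figure D2:**
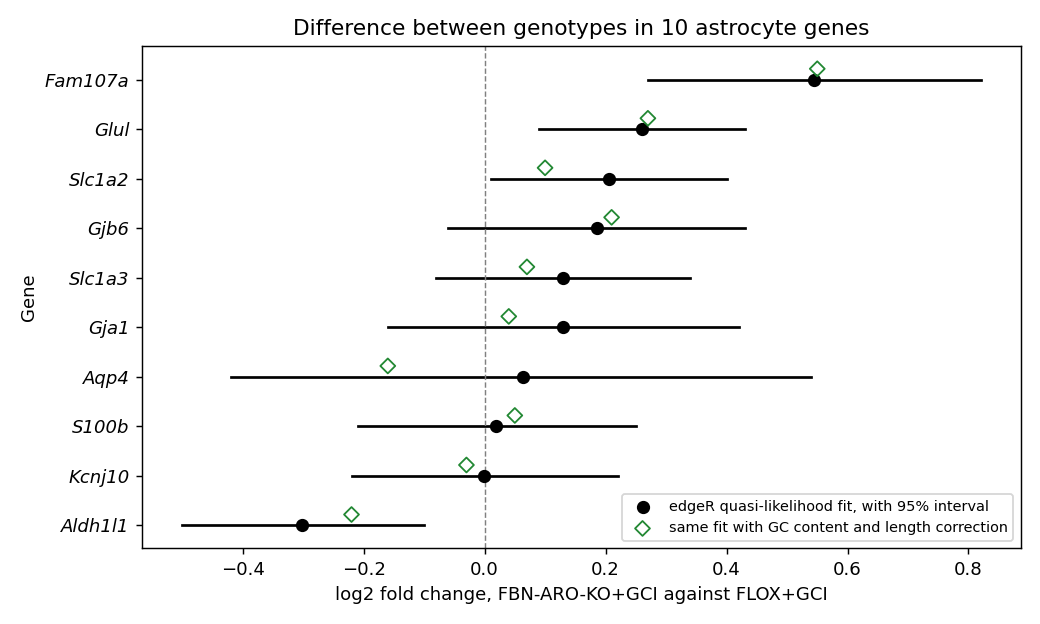
The log2 fold change of FBN-ARO-KO+GCI against FLOX+GCI is plotted for each gene, with black points and 95% intervals from edgeR's quasi-likelihood fit and green diamonds from the same fit after a correction for GC content and length. The intervals of Fam107a, Glul and Slc1a2 lie above 0 and that of Aldh1l1 below 0, and the correction moves Aqp4 from 0.06 to -0.16.

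The largest difference of the 10 was that of Fam107a (also called DRR1), which lies on chromosome 14 from 9128788 to 9150537 of build mm9 on the minus strand. Its product links actin filaments and microtubules, and its transcript is known to be induced by stress and glucocorticoids. The level was 632.7 and 512.1 CPM in FLOX+GCI (replicate 1, then replicate 2, here and throughout), against 900.7 and 769.3 CPM in FBN-ARO-KO+GCI. Both FBN-ARO-KO+GCI libraries lay above both FLOX+GCI libraries. The FLOX+GCI mean was 572.4 ± 85.28 CPM and the FBN-ARO-KO+GCI mean 835.0 ± 92.94 CPM (SD, n = 2 each). The log2 fold change was 0.54 (standard error 0.12, 95% interval 0.27 to 0.82), which is 1.46-fold, and exceeded the log2 ratio of 0.31 in size that separated the FLOX+GCI replicates.

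For Fam107a, edgeR's quasi-likelihood test gave an unadjusted p = 0.00226 and an adjusted p = 0.238. Leaving out FLOX+GCI replicate 1 gave a log2 fold change of 0.71 with an adjusted p = 0.00625 (edgeR), under which 1.39% of all genes were called, and leaving out FLOX+GCI replicate 2 gave 0.40 with an adjusted p = 0.186, the highest and lowest of the 4 such values. Other tests on the same 4 libraries called the gene, with an adjusted p = 0.000442 from DESeq2 (4.92% of the 5796 genes to which it gave an adjusted p were called) and 0.007 from edgeR's likelihood ratio test (2.02% of genes called). A fit with the replicate number as a block also did, at an adjusted p of 0.00557 (edgeR, 1.27% of genes called). With the GC content and length correction the log2 fold change was 0.55. Of all genes tested, the 5 whose log2 CPM over the 4 libraries followed that of Fam107a most closely were BC060267, Il20rb, Agxt2l1, Ccdc109b and Tspan11, with a root mean square difference between 0.0528 and 0.0625. Each is expressed at a far lower level, with Agxt2l1 the most abundant at 237 and 208 counts in FLOX+GCI, against 453 and 349 in FBN-ARO-KO+GCI.

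Among the genes of glutamate clearance, Glul and Slc1a2 were higher in FBN-ARO-KO+GCI in every library, and Slc1a3 overlapped. Glul, on chromosome 1 of mm9 from 155747074 to 155756853, had levels of 1407 and 1285 CPM in FLOX+GCI, against 1642 and 1583 CPM in FBN-ARO-KO+GCI. The fitted log2 fold change was 0.26 (standard error 0.07, 95% interval 0.09 to 0.43), or 1.20-fold, and was larger than the difference between replicates in either genotype. With edgeR's quasi-likelihood test the unadjusted p was 0.00835 and the adjusted p 0.238, and DESeq2 gave an adjusted p of 0.0406. After correction for GC content and length the log2 fold change was 0.27, and it ran from 0.19 to 0.33 as each library was left out. Glul overlaps 5830403L16Rik on the opposite strand, but that gene had at most 50 counts in a library.

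Slc1a2, on chromosome 2 of mm9 from 102498816 to 102630941, is the main glutamate transporter of the forebrain. It had levels of 3150 and 2987 CPM in FLOX+GCI, against 3279 and 3799 CPM in FBN-ARO-KO+GCI. The libraries of the genotypes did not overlap, but the 2 FBN-ARO-KO+GCI libraries differed from each other by a log2 ratio of 0.21, the same size as the fold change between genotypes (log2 0.21, standard error 0.08, 95% interval 0.01 to 0.40). The unadjusted p of edgeR's quasi-likelihood test was 0.0436 and the adjusted p 0.289. The difference dropped to 0.10 on the log2 scale, with an unadjusted p of 0.199 (edgeR), after correction for GC content and length, and to 0.10 without FBN-ARO-KO+GCI replicate 2. Without FBN-ARO-KO+GCI replicate 1 it was 0.31, the highest such value. The transcript overlaps Gm13872 on the opposite strand.

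Slc1a3, on chromosome 15 of mm9 from 8584124 to 8660764, had levels of 784 and 680.4 CPM in FLOX+GCI, against 772.9 and 830 CPM in FBN-ARO-KO+GCI. The log2 difference of 0.13 (standard error 0.09, 95% interval -0.08 to 0.34) was smaller than the difference between the FLOX+GCI replicates and did not pass edgeR's quasi-likelihood test (adjusted p = 0.463). It was 0.24 without FLOX+GCI replicate 1 and 0.03 without FLOX+GCI replicate 2. The ratio of Slc1a2 to Slc1a3 counts within a library was 4.018 and 4.391 in FLOX+GCI, against 4.243 and 4.577 in FBN-ARO-KO+GCI. These ratios overlapped between genotypes (difference 0.07 on the log2 scale, exact two-sided permutation p = 0.667). With 2 libraries against 2, this exact test cannot give a p below 0.333.

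A further 20 genes of glutamate and GABA uptake and of the glutamate-glutamine cycle were examined beside them. None passed the adjusted threshold of edgeR's quasi-likelihood test, while DESeq2 called 3 (Slc38a3, Slc38a2 and Grm5) and the likelihood ratio test 1 (Slc38a3). Over all genes, DESeq2 called 4.92% of the 5796 to which it gave an adjusted p, and the likelihood ratio test 2.02%. At an unadjusted p under 0.05, 2 were higher and 2 lower in the quasi-likelihood test, beside 8.72% and 7.82% of all genes tested. The median log2 fold change was -0.07, or 0.03 after the GC content and length correction. Slc38a3, the glutamine exporter of astrocytes, was at 89.02 ± 4.474 CPM in FLOX+GCI, against 67.81 ± 0.5326 CPM in FBN-ARO-KO+GCI (SD, n = 2 each). The fitted log2 difference was -0.39 (standard error 0.08), with an adjusted p of 0.238 in edgeR's quasi-likelihood test. It was -0.27 after the GC content and length correction. The value for the exporter thus lay below 0 where that of Glul, which makes the glutamine, lay above. Slc38a2, a neutral amino acid transporter, had a log2 fold change of 0.31, or 0.18 after the same correction. Grm5, a metabotropic glutamate receptor gene, had a log2 fold change of 0.36, or 0.16 after the correction. Slc17a6, a vesicular glutamate transporter gene, had one of -0.91 that rested on FLOX+GCI replicate 2 and was -0.09 without that library.

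The channel genes of potassium and water did not differ between genotypes beyond the spread of their libraries. Kcnj10, on chromosome 1 of mm9 from 174271341 to 174304216, had levels of 214.9 and 257.9 CPM in FLOX+GCI, against 237.9 and 234.5 CPM in FBN-ARO-KO+GCI. Both FBN-ARO-KO+GCI values lay between the FLOX+GCI values. The 95% interval of its log2 fold change ran from -0.22 to 0.22 (edgeR's quasi-likelihood test, adjusted p = 0.997), so a difference of that size in either direction cannot be told from none. As each library was left out, the estimate ran from -0.12 to 0.13.

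Aqp4, on chromosome 18 of mm9 from 15547903 to 15562193, varied more between replicates than any other of the 10 genes. Its level was 122.7 and 177.1 CPM in FLOX+GCI, against 129 and 184.4 CPM in FBN-ARO-KO+GCI. Replicate 2 exceeded replicate 1 by 0.53 on the log2 scale in FLOX+GCI, against by 0.52 in FBN-ARO-KO+GCI, while the genotypes differed by only 0.06 (standard error 0.20, 95% interval -0.42 to 0.54, adjusted p = 0.894 in edgeR's quasi-likelihood test). Aqp4 has the lowest GC content of the 10 transcripts, and its log2 fold change was -0.16 after the GC content and length correction. With 1 library left out in turn, it ran from -0.22 to 0.35.

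Of 19 other genes of ion and water handling and of the complex that anchors Aqp4 and Kcnj10 at the endfoot, 18 were tested and none passed the adjusted threshold in edgeR's quasi-likelihood test, in DESeq2 or in the likelihood ratio test. The median log2 fold change was 0.04, or 0.11 after the GC content and length correction. At an unadjusted p under 0.05, 3 were higher and 0 lower, beside 8.72% and 7.82% of all genes tested. These 3 were the anchoring genes Dtna (dystrobrevin alpha, log2 fold change 0.21) and Dmd (dystrophin, 0.34), and the chloride cotransporter gene Slc12a2 (0.38). After the GC content and length correction their values were 0.12, 0.16 and 0.23. None of the 3 then had an unadjusted p under 0.05 (edgeR), while 4 others of the list did. Dtna had 152 and 156.4 CPM in FLOX+GCI, against 178.2 and 179.6 CPM in FBN-ARO-KO+GCI, with little spread within either genotype. In edgeR's quasi-likelihood test their adjusted p-values ran from 0.248 (Dtna) to 0.289 (Slc12a2). The water channel gene Aqp1, which had between 3 and 20 counts, was not tested.

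**Figure D3:**
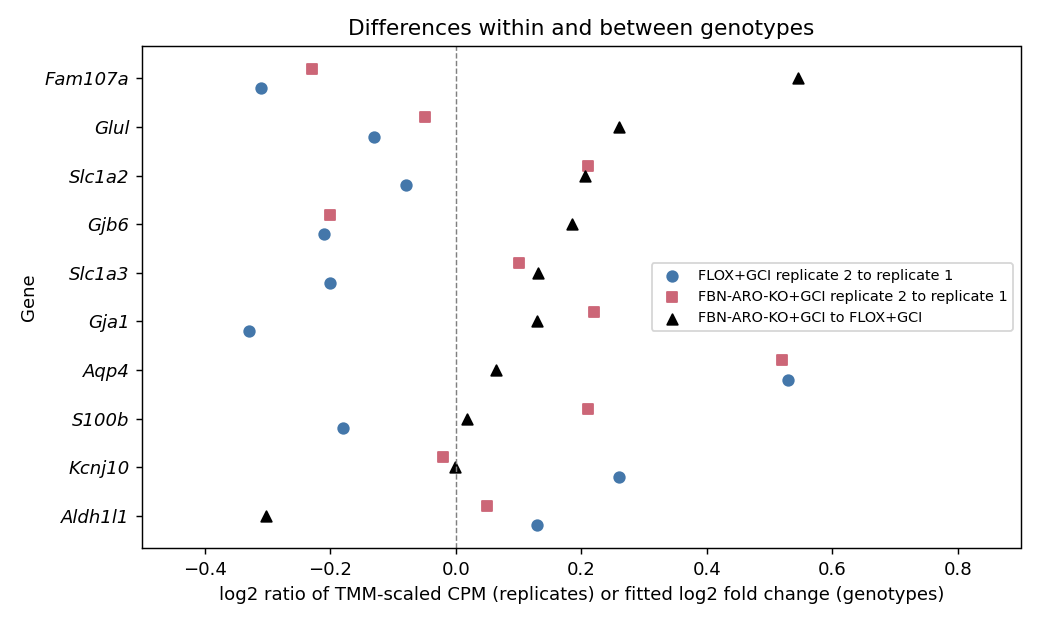
For each gene, blue circles and red squares give the log2 ratio of replicate 2 to replicate 1 within FLOX+GCI and within FBN-ARO-KO+GCI, and black triangles the log2 fold change between genotypes. The triangle lies farther from 0 than both replicate ratios for Fam107a, Glul and Aldh1l1, and nearer to 0 than both for Gjb6, Gja1, Aqp4, S100b and Kcnj10.

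The gap junction genes overlapped between genotypes. Gja1, on chromosome 10 of mm9 from 56097106 to 56110225, had levels of 219.4 and 174.3 CPM in FLOX+GCI, against 199.2 and 231.7 CPM in FBN-ARO-KO+GCI. The log2 fold change was 0.13 (standard error 0.12, 95% interval -0.16 to 0.42, adjusted p = 0.606 in edgeR's quasi-likelihood test), less than the log2 ratio of 0.33 in size between the FLOX+GCI replicates. Its values with a library left out ran from -0.03 without FLOX+GCI replicate 2 to 0.31 without FLOX+GCI replicate 1. Gjb6, on chromosome 14 of mm9 from 57742140 to 57752448, stood at 77.36 and 66.79 CPM in FLOX+GCI, against 87.76 and 76.14 CPM in FBN-ARO-KO+GCI. FBN-ARO-KO+GCI replicate 2 lay just under FLOX+GCI replicate 1, and the log2 fold change was 0.19 (standard error 0.11, 95% interval -0.06 to 0.43, adjusted p = 0.399 with edgeR's quasi-likelihood test). This estimate was 0.30 without FLOX+GCI replicate 1, and 0.08 without either FLOX+GCI replicate 2 or FBN-ARO-KO+GCI replicate 1.

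The ratio of Gja1 to Gjb6 counts showed no difference that could be resolved. It was 2.837 and 2.61 in FLOX+GCI, against 2.27 and 3.043 in FBN-ARO-KO+GCI (difference -0.05 on the log2 scale, exact two-sided permutation p = 1.0). A list of 11 other genes, the connexins and pannexins with the scaffold gene Tjp1, had a median log2 fold change of -0.16, and none passed the adjusted threshold in edgeR's quasi-likelihood test, in DESeq2 or in the likelihood ratio test. Of all genes tested, 8.72% were higher and 7.82% lower at an unadjusted p under 0.05. In this list 1 was higher (Gjc3, the oligodendrocyte connexin 29, log2 fold change 0.32) and 3 were lower. The 3 were Gja4 (-0.99) and Gja5 (-1.06), connexins of blood vessel walls, and Gjb2 (-1.20), a connexin of the meninges. Gjb2 varied widely within each genotype, with 18.59 and 8.963 CPM in FLOX+GCI, against 8.535 and 3.345 CPM in FBN-ARO-KO+GCI. Markers of blood vessel cells are given with these values further on.

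Aldh1l1 was the one gene of the 10 with both FBN-ARO-KO+GCI libraries below both FLOX+GCI libraries. It encodes an enzyme of folate metabolism and lies on chromosome 6 of mm9 from 90436421 to 90550197. Its level was 59.52 and 65.17 CPM in FLOX+GCI, against 49.64 and 51.5 CPM in FBN-ARO-KO+GCI, or 62.35 ± 3.994 and 50.57 ± 1.314 CPM (SD, n = 2 each). The log2 fold change was -0.30 (standard error 0.08, 95% interval -0.50 to -0.10), larger in size than the differences between replicates. edgeR's quasi-likelihood test gave an unadjusted p = 0.00848 and an adjusted p = 0.238, and DESeq2 an adjusted p = 0.102. The log2 fold change was -0.22 after the GC content and length correction, and Aldh1l1 has the highest GC content of the 10 transcripts. As each library was left out, it ran from -0.36 to -0.24. Its transcript overlaps Gm15756 on the opposite strand, whose reads could not be set apart here.

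S100b, on chromosome 10 of mm9 from 75716598 to 75723904, had levels of 129.2 and 113.9 CPM in FLOX+GCI, against 114.4 and 131.9 CPM in FBN-ARO-KO+GCI. The libraries interleaved, and the log2 fold change was 0.02 (standard error 0.10, 95% interval -0.21 to 0.25, adjusted p = 0.94 in edgeR's quasi-likelihood test). The pair of widely used astrocyte markers thus gave different values, 0.02 for S100b and -0.30 for Aldh1l1. For S100b the sign was not stable, with -0.09 without FBN-ARO-KO+GCI replicate 2 and 0.12 without either replicate 1. 

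Counts were also expressed relative to those of Aldh1l1 in the same library, which needs no scaling between libraries. Aldh1l1 itself was lower in FBN-ARO-KO+GCI, so every such ratio carries its difference, and the ratios are given as a description with no test. Kcnj10 and S100b, whose own log2 fold changes were close to 0, had ratios that differed by 0.31 and 0.32 on the log2 scale. Fam107a to Aldh1l1 was 10.63 and 7.858 in FLOX+GCI, against 18.14 and 14.94 in FBN-ARO-KO+GCI, a difference of 0.85, or 0.77 with the GC content and length correction. Glul to Aldh1l1 was 23.64 and 19.72 in FLOX+GCI, against 33.08 and 30.73 in FBN-ARO-KO+GCI, a difference of 0.56. Slc1a2 to Aldh1l1 differed by 0.50, or by 0.31 with the correction.

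Another 40 genes enriched in astrocytes at rest were examined as a wider set beside the 10 genes. None of the 40 passed the adjusted threshold of edgeR's quasi-likelihood test, while DESeq2 and edgeR's likelihood ratio test each called 2 (Dio2 and Htra1). DESeq2 called 4.92% of the 5796 genes to which it gave an adjusted p, and the likelihood ratio test 2.02% of all genes tested. At an unadjusted p under 0.05, 5 of the 40 were higher and 1 lower in the quasi-likelihood test, beside 8.72% and 7.82% of all genes tested. The median log2 fold change was -0.03 beside 0.13 for the 10 genes, but after the GC content and length correction it was 0.07 beside 0.06. Their summed level was 11720 and 10640 CPM in FLOX+GCI, against 11170 and 10960 CPM in FBN-ARO-KO+GCI, and the genotypes overlapped. The summed level of the 10 genes was 6797 and 6320 CPM in FLOX+GCI, against 7413 and 7891 CPM in FBN-ARO-KO+GCI, and did not overlap. Slc1a2, the most abundant of them, makes up much of that sum. Of the 40 genes, Dio2, which encodes the deiodinase that activates thyroid hormone in glia, had the smallest p before the GC content and length correction. It had 70.14 and 68.46 CPM in FLOX+GCI, against 97.56 and 109.5 CPM in FBN-ARO-KO+GCI. The fitted log2 difference was 0.58 (standard error 0.08, adjusted p = 0.238 in edgeR's quasi-likelihood test, and 9.31e-05 in DESeq2). It was 0.42 after the correction, where Htra1 had the smallest p of the 40. Htra1, a secreted protease gene (0.32, or 0.49 after the correction), and Megf10, a phagocytic receptor gene (0.31, or 0.24), also had values above 0. Cst3, which encodes cystatin C, had a log2 fold change of -0.26, or -0.01 after the GC content and length correction.

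Most of a list of 15 genes known to be raised in reactive astrocytes had values on the other side of 0. Of the 14 tested, 13 had a log2 fold change below 0, beside 7458 of all 14527 genes tested. The median was -0.42, or -0.40 after the GC content and length correction. At an unadjusted p under 0.05 in edgeR's quasi-likelihood test, 6 were lower and 1 higher, beside 7.82% and 8.72% of all genes tested. None passed the adjusted threshold of that test, while DESeq2 called 1 (Vim) and the likelihood ratio test 2 (Vim and S1pr3). The shares called over all genes were 4.92% with DESeq2 (of 5796 with an adjusted p) and 2.02% with the likelihood ratio test. The summed level of the list was 825.6 and 1620 CPM in FLOX+GCI, against 968.6 and 964.4 CPM in FBN-ARO-KO+GCI, so that the genotypes overlapped and FLOX+GCI replicate 2 was the library apart. The median was -0.20 without that library and -0.69 without FLOX+GCI replicate 1. Gfap, the intermediate filament of reactive astrocytes, had 395.7 and 900 CPM in FLOX+GCI, against 502.3 and 560 CPM in FBN-ARO-KO+GCI. Vim, another filament gene, had 66.47 and 72.47 CPM in FLOX+GCI, against 54.83 and 44.06 CPM in FBN-ARO-KO+GCI, with no overlap (log2 fold change -0.49, adjusted p = 0.238 in edgeR's quasi-likelihood test). The gene above 0 was Lcn2, with 2.354 and 4.948 CPM in FLOX+GCI, against 8.173 and 5.631 CPM in FBN-ARO-KO+GCI. These libraries did not overlap either (log2 fold change 0.92, adjusted p = 0.268 in edgeR's quasi-likelihood test).

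Markers of other cells of the hippocampus were set beside the 10 genes. No list had a gene at 0 counts in all libraries, and none of their genes passed the adjusted threshold of edgeR's quasi-likelihood test. Oligodendrocyte lineage markers were called by DESeq2 (Ermn, Mal and Gpr17) and by the likelihood ratio test (Ermn and Gpr17). The latter test also called the choroid plexus marker Ttr (log2 fold change -0.98). The shares called over all genes were 4.92% with DESeq2 (of 5796 with an adjusted p) and 2.02% with the likelihood ratio test. At an unadjusted p under 0.05, 8.72% of all genes tested were higher and 7.82% lower. For 12 neuron markers the median log2 fold change was 0.05, with 1 gene higher and 2 lower at that threshold. For 11 oligodendrocyte markers it was 0.09, with 4 higher and 1 lower. The summed level of these oligodendrocyte markers was 4321 and 4813 CPM in FLOX+GCI, against 4934 and 5120 CPM in FBN-ARO-KO+GCI, and did not overlap. Oligodendrocytes also express Glul and S100b, and the part of this difference in the values of these genes was not tested. For 5 markers of oligodendrocyte precursors the median was -0.07 (0.10 after the GC content and length correction), with 2 higher, and for 9 microglia markers it was -0.00 with 0 in either direction.

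Of the blood vessel markers, all had log2 fold changes below 0, beside 7458 of the 14527 genes tested. The summed levels of both lists overlapped between genotypes. The median log2 fold change was -0.25 for 7 endothelial markers and -0.52 for 6 markers of pericytes and smooth muscle. At an unadjusted p under 0.05, each list had 0 higher and 1 lower, beside 8.72% and 7.82% of all genes tested. The libraries did not overlap for Tie1 and Esam of the endothelial list and for Pdgfrb and Kcnj8 of the other, all lower in FBN-ARO-KO+GCI. Of all genes tested, 25.8% were lower without overlap in the same way. The summed level was 257.1 and 195.6 CPM in FLOX+GCI, against 222.6 and 164.0 CPM in FBN-ARO-KO+GCI for endothelial cells. For pericytes and smooth muscle it was 187.5 and 108.9 CPM in FLOX+GCI, against 143.1 and 70.61 CPM in FBN-ARO-KO+GCI. Without FLOX+GCI replicate 1 the medians were -0.00 (endothelial) and -0.01 (pericytes and smooth muscle), and without FBN-ARO-KO+GCI replicate 1 they were -0.51 and -1.28. Replicate 1 exceeded replicate 2 in both genotypes, the opposite order to that of the endfoot gene Aqp4. The part of vessel content in the values of Aqp4, Gja4 and Gja5 was not tested. For 7 markers of ependyma and choroid plexus the median was 0.20, with 1 higher (Ccdc153, log2 fold change 0.80) and 1 lower (Ttr, -0.98). The markers did not share a direction, with 5 log2 fold changes above 0 and 2 below (Ttr and Kcnj13, the latter at -1.45).

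**Figure D4:**
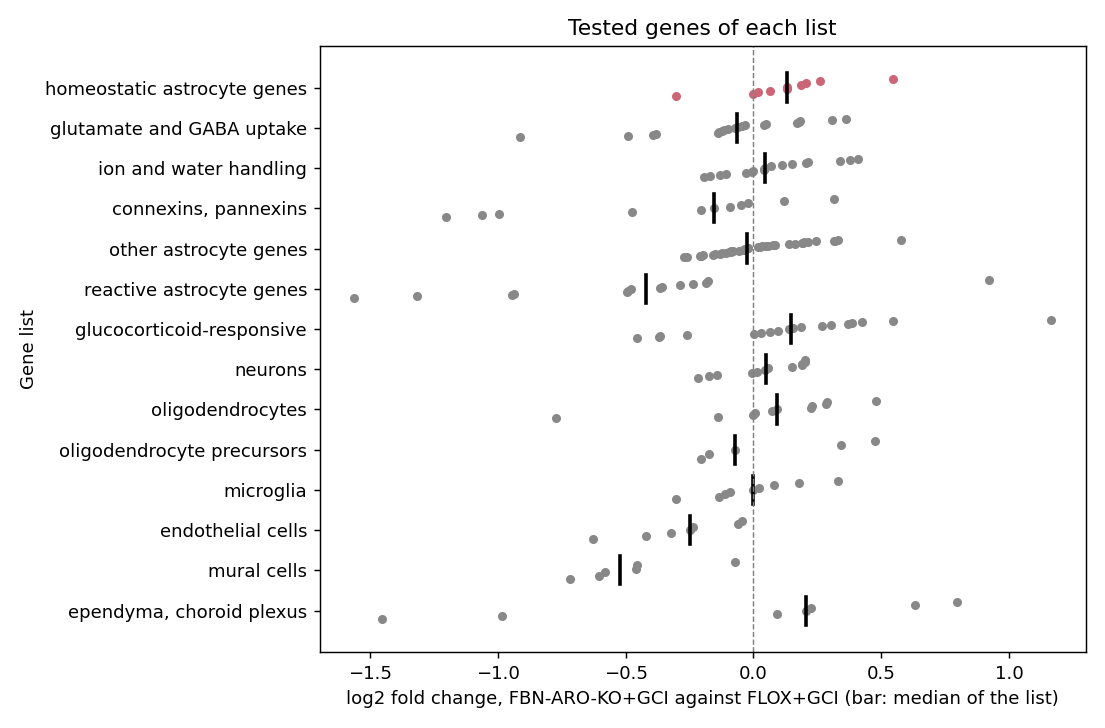
Each point is the log2 fold change of 1 tested gene, FBN-ARO-KO+GCI against FLOX+GCI, grouped by list, and each bar is the median of a list. The 10 homeostatic astrocyte genes (red) center on 0.13, the other astrocyte genes on -0.03 and the reactive astrocyte genes on -0.42. After a correction for GC content and length, not plotted, these medians were 0.06, 0.07 and -0.40.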

How the data were processed

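RNA-Seq libraries were made from total hippocampal RNA and sequenced as 50 nt single-end reads. According to the submitters' processing notes, bcl2fastq, TopHat2 2.0.8b (build mm9) and HTSeq were used. The authors deposited raw counts per gene symbol, without normalization. The annotation release and strand setting are not given in the sources used here, so reads of genes that overlap on opposite strands cannot be told apart. The rows that name no gene (outside genes, ambiguous or not unique) held 43.4% to 45.5% of all deposited counts and were left out.

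From the deposited counts, genotypes were compared in edgeR 4.0.16 (R 4.3.3) by the quasi-likelihood test with TMM scaling, filterByExpr (minimum count 10) and Benjamini-Hochberg adjustment over 14527 genes at 0.05. Standard errors were approximated from the F statistic. Intervals are 95%. Only 2 libraries per group limit the precision, and counting error is smaller than the spread between libraries. The ratios of Slc1a2 to Slc1a3 and of Gja1 to Gjb6 counts were compared by exact permutation (scipy 1.17.1). Alternatives were DESeq-style size factors, library totals, other filters on low counts (a minimum of 1 count, or a mean of 50 or more), DESeq2 1.42.0, edgeR's likelihood ratio test, a block for the replicate number, a correction for transcript GC content and length (splines with 5 degrees of freedom), the correction with the block, and leaving out each library. The procedure was tested on simulated data.

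Loci and transcripts came from the GENCODE M1 annotation of mm9. Promoters came from RefSeq, in which 9 of the 10 genes were used. Named genes were the 10 astrocyte genes, Cyp19a1, Gfap, up to 4 genes of each other list with the smallest p, and the 5 genes nearest to Fam107a in log2 CPM. The genes and lists, among them 18 glucocorticoid-responsive genes, were chosen with earlier results of these data known.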

Additional observations from a re-analysis of the deposited data

How the results depend on the processing

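Over 13 alternatives, 113 of 130 log2 fold changes of the 10 genes kept their direction and side of the threshold, 5 passed it and 12 changed sign, none of these in 6 genes. With Fam107a, and in DESeq2 also Glul, the number of genes past the threshold went from 0 to 2 with DESeq2, 1 with the likelihood ratio test and 0 to 1 with 1 library left out. Over all genes, 285 were called by DESeq2, 294 by the likelihood ratio test, 5 with every gene of at least 1 count and 0 to 202 with 1 library left out, against 2. In the other lists, calls went from 0 to 11 with DESeq2, 11 with the likelihood ratio test, and 0 to 11 with 1 library left out (11 without FLOX+GCI replicate 1, 5 without FLOX+GCI replicate 2). Leaving out 1 library gave 2 to 7 of the 10 genes at an unadjusted p under 0.05 and a median of 0.05 to 0.25. The fit with the replicate block called 184 genes, 1 of the 10 (Fam107a, edgeR's adjusted p = 0.00557) and 13 in the other lists. With the block and the GC content and length correction, 1 gene was called, and the adjusted p of Fam107a was 0.115. Same-numbered libraries deviated together only weakly (correlation 0.129), and the labels do not pair them. Aqp4 changed sign with the correction (-0.16, and -0.14 with the block), Kcnj10 with every gene of at least 1 count (0.0021) and the block (0.0048), and S100b with library totals (-0.0191). With 1 library left out, log2 fold changes ran from -0.22 to 0.35 for Aqp4, -0.12 to 0.13 for Kcnj10, -0.0314 to 0.31 for Gja1 and -0.0878 to 0.12 for S100b, and the Gja1 to Gjb6 ratio from -0.26 to 0.16. The cause of these changes was not tested. Groups of 2 libraries limit what can be resolved.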

Other observations

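The 18 genes known to respond to glucocorticoids, as Fam107a is known to do, were examined as a list of their own. None passed the adjusted threshold of edgeR's quasi-likelihood test, while DESeq2 called 2 (Fkbp5 and Zbtb16) and the likelihood ratio test 3 (these and Plin4). Over all genes, DESeq2 called 4.92% of the 5796 to which it gave an adjusted p, and the likelihood ratio test 2.02%. At an unadjusted p under 0.05, 5 had values above and 1 below those of FLOX+GCI, beside 8.72% and 7.82% of all genes tested. In the list 14 of the 18 log2 fold changes lay above 0, beside 7069 of all 14527 genes tested. The median of the list was 0.15. It was 0.30 after the GC content and length correction, 0.28 without FLOX+GCI replicate 2 and 0.08 without FLOX+GCI replicate 1. Fkbp5, a cochaperone of the glucocorticoid receptor, had 102.3 and 116.3 CPM in FLOX+GCI, against 146.3 and 146.7 CPM in FBN-ARO-KO+GCI. The fitted log2 difference of 0.42 (standard error 0.08) had an adjusted p of 0.238 with edgeR's quasi-likelihood test. Zbtb16, a transcription factor gene, had 76.84 and 84.52 CPM in FLOX+GCI, against 100.9 and 109.9 CPM in FBN-ARO-KO+GCI (log2 difference 0.39). Tsc22d3, which encodes the glucocorticoid-induced leucine zipper, had 72.93 and 73.61 CPM in FLOX+GCI, against 83.72 and 106 CPM in FBN-ARO-KO+GCI, and Plin4, a lipid droplet gene, had 9.774 and 21.37 against 34.65 and 35.08 CPM. These 4 have the smallest p-values of the list. In the whole list, 7 genes had libraries without overlap that were higher in FBN-ARO-KO+GCI and 1 had lower ones, beside 25.9% and 25.8% of all genes tested. The 4 genes with log2 fold changes below 0 were the metallothionein genes Mt1 (-0.37, without overlap) and Mt2 (-0.45), the phosphatase gene Dusp1 (-0.37) and Nfkbia (-0.26), and they were named after their values were seen.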
